A study of Homo sapiens with 12 samples.

Results

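The comparison described here is selinexor against vehicle in MOLM-13, 6 of the 12 libraries of a study of 2 acute myeloid leukaemia (AML) cell lines. Its members were chosen by their labels and columns in the deposited MOLM-13 count table: 3 libraries of cells given 75 nM selinexor and 3 libraries of cells given vehicle (DMSO), each for 36 h. The other 6 libraries, OCI-AML2 with vehicle or with 200 nM selinexor for 36 h, were used only where a difference between the lines was tested, and line and dose cannot be told apart there. Polyadenylated RNA was sequenced without keeping the strand. The submitters describe the 3 libraries of a group as biologically independent, all are of 1 established line, and p-values here measure only the spread between these libraries.

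MOLM-13 is an established line from a patient with AML of the monocytic kind. It carries a fusion of KMT2A with MLLT3 and an internal tandem duplication in the receptor tyrosine kinase FLT3. XPO1 (exportin 1, CRM1) is a transport receptor that binds proteins with a leucine-rich export signal in the nucleus together with RanGTP and carries them through the nuclear pore. Selinexor is a small molecule that binds a cysteine in the cargo groove of XPO1 and blocks loading. Cargoes include p53, the FOXO factors, the retinoblastoma protein and ribosomal subunits through adaptors, and p53 is known for arresting the cell cycle and promoting cell death through the genes it activates.

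Total counts lay between 8160133 and 9444344 in the vehicle libraries and between 8114892 and 9711704 in the selinexor libraries. Values below are CPM, counts scaled to a common library size by TMM, a method that sets library sizes so that most genes are level, and 3 counts in a library stood for 0.313 to 0.375 CPM, a floor that covers counting error only. Of 16820 genes in the table, 11807 had enough counts to test. Log2 fold changes are selinexor over vehicle with their standard errors (3 against 3 libraries), and a gene is said to rise or fall where the quasi-likelihood test of edgeR gave a p under 0.05 after Benjamini-Hochberg adjustment over the 11807 genes. By that rule 7506 genes (63.6%) changed, 3751 upward (31.8%) and 3755 downward (31.8%), with a median log2 fold change over all tested genes of 0.0091 and quartiles of -0.29 and 0.37. Rises of at least 2-fold numbered 858 (7.27%) and falls of that size 421 (3.57%), and the balance moved with level: 417 rises and 78 falls of that size at 1 to 5 CPM, 160 and 185 at 20 to 100 CPM, and 49 and 75 over 100 CPM. In 7739 genes (65.5%) the groups did not overlap, all selinexor libraries lying above in 32.7% and below in 32.8%. The first principal component held 80.8% of the variance and separated the treatments. Spearman correlations across genes were 0.995 to 0.996 within a group and 0.958 to 0.960 between groups. In RNA from a whole culture, a change in how many cells make a transcript and a change in how much each cell makes cannot be told apart.

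The labels call the material leukaemic blasts, and the libraries held markers of myeloid progenitors. The myeloid surface receptor CD33 was measured at 33.7, 39.2 and 36.6 CPM with vehicle and 52.4, 49.9 and 52.1 CPM with selinexor. SPI1, which encodes the myeloid transcription factor PU.1, was measured at 173, 189 and 196 CPM with vehicle and 243, 249.7 and 229.6 CPM with selinexor. Both were higher in each selinexor library than in each vehicle library, with log2 fold changes of 0.49 ± 0.079 and 0.37 ± 0.043. Markers of mature monocytes differed in level: their sum lay between 576 and 585 CPM with vehicle and 1495 and 1556 CPM with selinexor. Most of the sum with selinexor was lysozyme (LYZ, log2 fold change 3.04 ± 0.038), and of 15 tested markers 9 rose, 1 fell and 5 did not pass. CD14 had 4 counts and CD68 had 33 over the 6 libraries. ITGAM, the alpha chain of the integrin Mac-1, had 1.7, 1.75 and 1.68 CPM with vehicle and 3.58, 4.48 and 2.62 CPM with selinexor. Of 18 lymphocyte markers, 3 had enough counts to test, the sum of the markers lay between 141 and 147 CPM with vehicle and 120.1 and 128 CPM with selinexor, and most of it was NCAM1, an adhesion molecule that AML cells can also carry. CD3E, TRAC and MS4A1, which define T and B cells, have no row among the genes analysed here. Of 19 erythroid and megakaryocyte markers 4 were tested, and their sum lay between 266 and 268 CPM with vehicle and 131 and 138 CPM with selinexor, most of it the transferrin receptor TFRC (-1.24 ± 0.046), which dividing cells of many kinds carry. Of 15 epithelial, fibroblast and endothelial markers 2 were tested, KRT8 and KRT18, with sums of 12.5 to 12.8 CPM and 32.8 to 42.1 CPM. The part of these markers in the results was not tested. The globin genes HBA1 and HBB and the epithelial gene EPCAM have no row either. A missing row gives no level, since EEF1G, an elongation factor subunit that most cells make, has none.

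**Figure D1:**
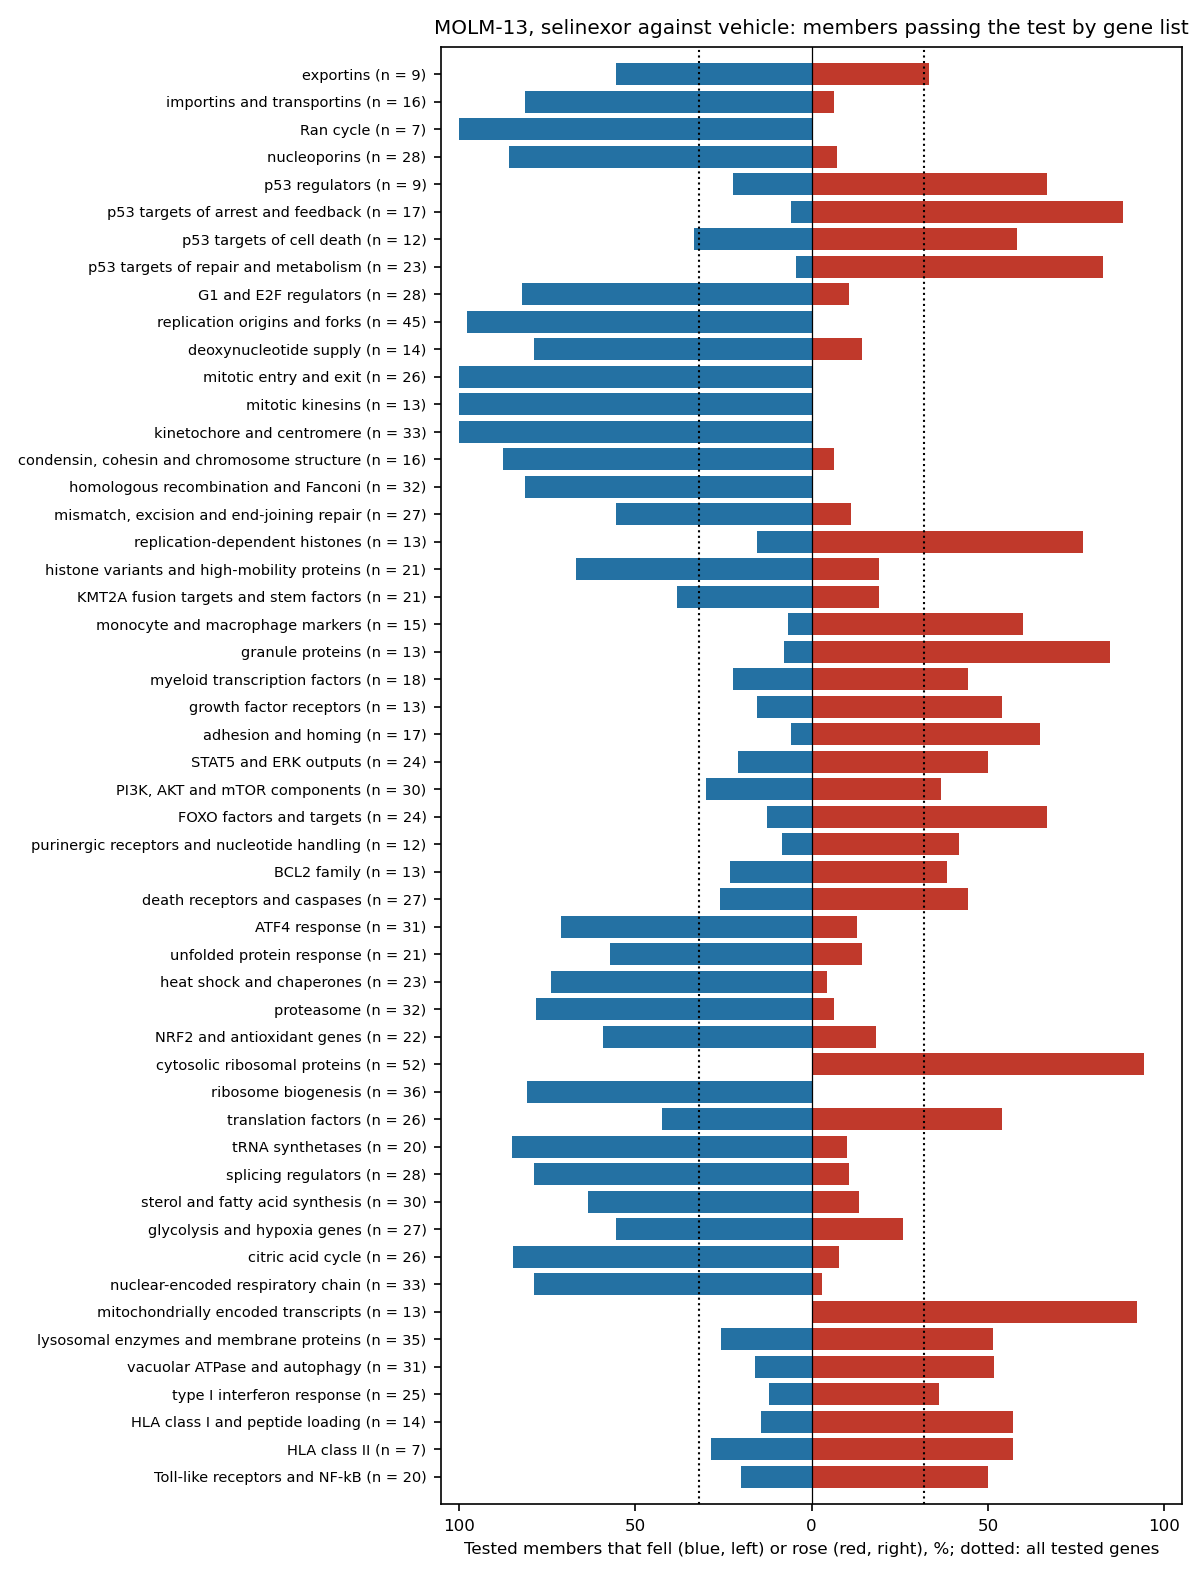
Percent of the tested members of each gene list drawn that fell (blue bars, to the left) or rose (red bars, to the right) with selinexor in MOLM-13 by edgeR's quasi-likelihood test at an adjusted p under 0.05. The lists of lymphocyte, of erythroid and megakaryocyte, and of epithelial, fibroblast and endothelial markers had few tested members and are not drawn. The dotted lines mark the 31.8% of all tested genes that rose and the 31.8% that fell. Lists of mitosis and replication lie almost wholly on the left, and those of ribosomal proteins and mitochondrially encoded transcripts on the right.

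The transcript of the drug target rose. XPO1 (chr2:61477849-61538626, minus strand, GRCh38) was measured at 387, 365 and 389 CPM with vehicle and 597, 579 and 627 CPM with selinexor. The 3 selinexor libraries all lay above the 3 vehicle libraries, and the log2 fold change was 0.66 ± 0.035 (edgeR adjusted p = 6.4e-33). On the other strand a noncoding gene overlaps 494 exonic bases of XPO1, and the libraries do not keep the strand. The other exportins did not share this direction as a group. Of 9 tested exportins and export factors, 3 rose and 5 fell, beside 31.8% of all tested genes in each direction. CSE1L, which returns importin alpha to the cytoplasm, was measured at 247, 237 and 243 CPM with vehicle and 123, 118 and 124 CPM with selinexor. Its selinexor libraries all lay below its vehicle libraries, and it changed by -1.0 ± 0.044 on the log2 scale. XPOT, the exporter of transfer RNA, and XPO7 fell by less, with log2 fold changes of -0.39 ± 0.034 and -0.39 ± 0.048, and XPO6, the exporter of actin, rose by 0.20 ± 0.043. NXF1, the main carrier of messenger RNA, had a log2 fold change of 0.20 ± 0.063 (edgeR adjusted p = 0.0042), which missed the threshold without vehicle library 1 (0.14, edgeR adjusted p = 0.060).

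Most import receptors and all tested genes of the Ran system fell. The Ran cycle held 7 tested genes (median log2 fold change -0.74), among them RAN, the GTPase that gives transport its direction, at 1065, 1075 and 1081 CPM with vehicle and 657, 633 and 623 CPM with selinexor. RCC1, the exchange factor that loads Ran with GTP on chromatin, changed by -1.13 ± 0.045, and RANBP1, which helps release it from export complexes, by -1.08 ± 0.04. In these 3 genes the treatment groups did not overlap. Of 16 tested importins and transportins 13 fell and KPNA5 rose (median -0.31). KPNA2, the importin alpha that is most abundant in dividing cells, was measured at 294, 288 and 293 CPM with vehicle and 75.1, 63 and 74.2 CPM with selinexor, a log2 fold change of -2.05 ± 0.049. KPNB1, the importin beta that carries importin alpha and its cargo, changed by -1.13 ± 0.035. IPO7, an importer of ribosomal proteins and histones, did not pass (-0.05 ± 0.038). The summed level of the 17 listed, 1 of which had too few counts to test, went from between 2908 and 2981 CPM with vehicle to between 1916 and 1956 CPM with selinexor. Of 28 nucleoporins 24 fell (median -0.45), led by NUP37 (-0.99 ± 0.065) of the Y complex and the membrane anchor NDC1 (-0.80 ± 0.061). TPR of the nuclear basket and RANBP2 of the cytoplasmic filaments rose, by 0.36 ± 0.04 and 0.18 ± 0.046.

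Genes that regulate p53, and genes that p53 is known to activate, mostly rose. Of 9 tested p53 regulators 6 rose and 2 fell, beside 31.8% of all tested genes in each direction, and 4 to 6 rose when 1 library was left out. HIPK2 (0.35 ± 0.16) and TP53BP1 (0.16 ± 0.063) rose but missed the threshold with library size alone, with no filter and with DESeq2. MDM2 and PPM1D are also in the list of targets of arrest and feedback below. MDM2, the ubiquitin ligase that limits p53, was measured at 169, 162 and 155 CPM with vehicle and 625, 618 and 674 CPM with selinexor. Its relative MDM4 changed by 1.02 ± 0.068, and ATM, the kinase that signals DNA breaks to p53, by 0.92 ± 0.057. All 3 had their selinexor libraries above their vehicle libraries. USP7, the deubiquitinase of MDM2 and p53, changed by -0.44 ± 0.051, and PPM1D, the phosphatase that resets the response, did not pass (0.011 ± 0.094).

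Among 17 tested p53 targets of cell cycle arrest and feedback, 15 rose, 8 of them at least 2-fold, with a median log2 fold change of 1.0. CDKN1A (chr6:36676460-36687339, plus strand), the p21 inhibitor of cyclin-dependent kinases, was measured at 131, 139 and 144 CPM with vehicle and 386, 406 and 404 CPM with selinexor. TRIM22, a ubiquitin ligase that p53 and interferon both induce, was measured at 30.4, 32 and 29.9 CPM with vehicle and 341, 318 and 337 CPM with selinexor. TP53INP1, a p53-induced stress protein, was measured at 4.01, 2.85 and 3.46 CPM with vehicle and 14.2, 14.1 and 16.1 CPM with selinexor. In each of these genes every selinexor library was above every vehicle library, and the log2 fold changes were 1.53 ± 0.04, 3.43 ± 0.054 and 2.10 ± 0.18. BTG2, an antiproliferative factor that recruits deadenylases to messenger RNA, changed by 1.95 ± 0.14. GADD45B was the 1 member that fell (-0.24 ± 0.11, edgeR adjusted p = 0.043), and it missed the threshold without vehicle library 2, vehicle library 3, selinexor library 2 or selinexor library 3 and with DESeq2, where adjusted p-values ran from 0.058 to 0.23.

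Targets in repair and metabolism rose in a like way, 19 of 23 with a median of 0.73. GDF15, a secreted member of the TGF-beta family, was measured at 1.22, 0.985 and 1.15 CPM with vehicle and 12.2, 9.18 and 11 CPM with selinexor. CYFIP2, a subunit of the WAVE complex that regulates actin, was measured at 17.1, 14.2 and 15.3 CPM with vehicle and 75.1, 80.4 and 66.1 CPM with selinexor. PHLDA3, which competes with AKT for membrane lipids, was measured at 33.4, 33.8 and 28 CPM with vehicle and 79.7, 90.4 and 89.3 CPM with selinexor. The groups were apart in each of the 3, with log2 fold changes of 3.26 ± 0.26, 2.25 ± 0.089 and 1.45 ± 0.073. SESN2, a sestrin that restrains mTORC1, was the 1 member that fell (-0.29 ± 0.088), and it is also in the list of ATF4 targets below.

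**Figure D2:**
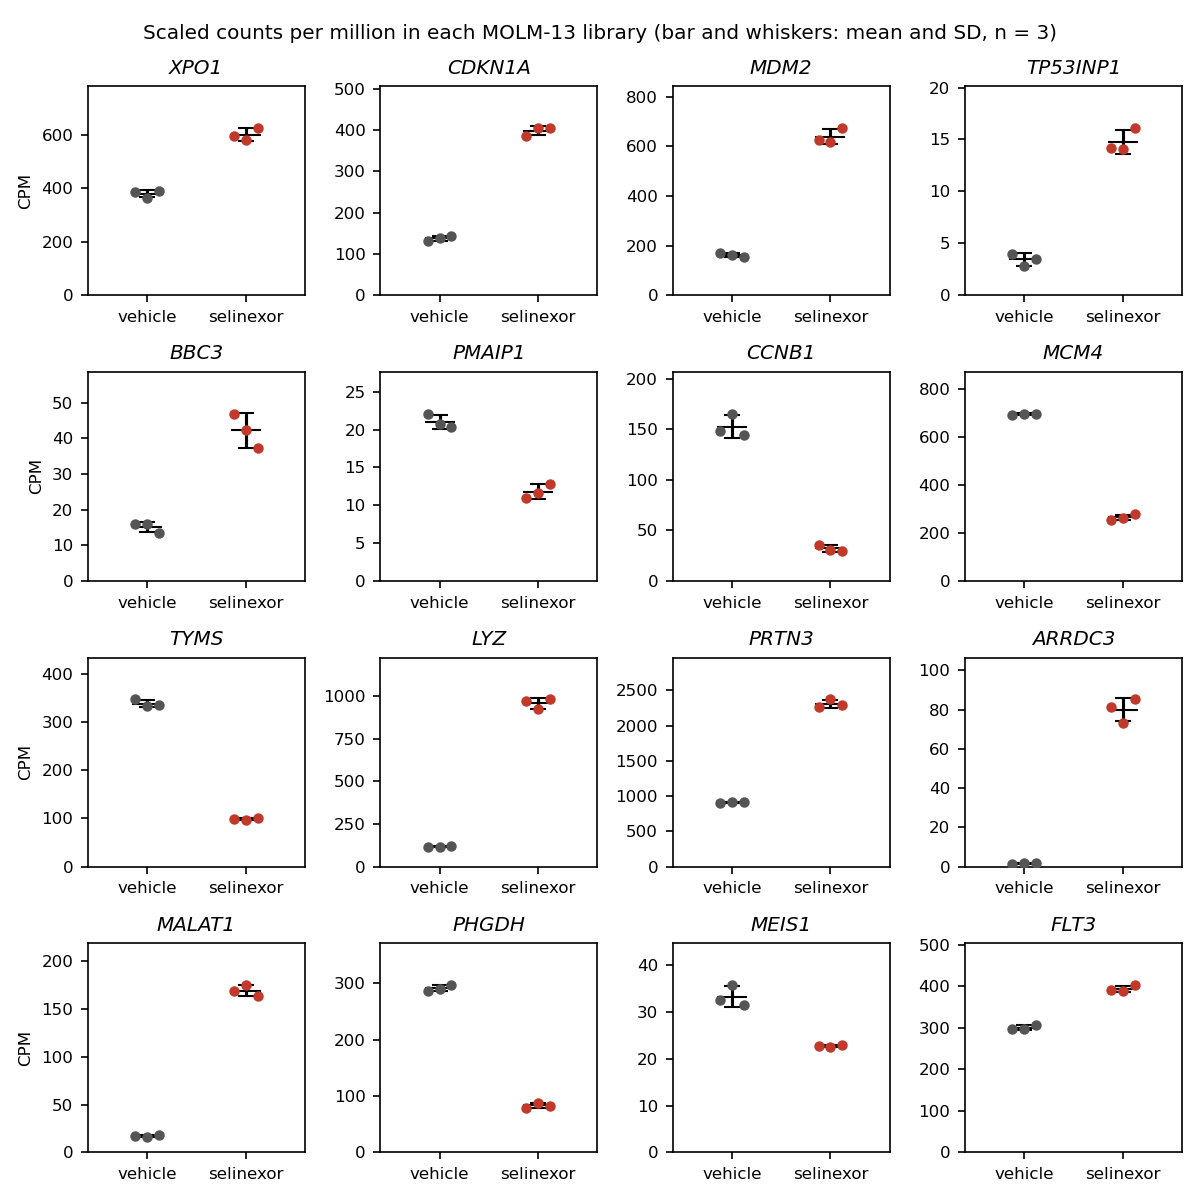
Scaled counts as CPM (vertical axis, from 0) in each of the 3 vehicle (grey) and 3 selinexor (red) MOLM-13 libraries for 16 genes, with the mean as a bar and the SD as whiskers. Each panel has its own scale, and in all 16 the groups are apart: XPO1 rose from a mean of 380.0 to 601 CPM, and CCNB1 fell from 152 to 32.2 CPM.

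Targets in cell death were divided. Of 12 tested members 7 rose and 4 fell, with a median of 0.27, beside 31.8% of all tested genes in each direction. BBC3, which encodes the BH3-only protein PUMA, was measured at 15.9, 16 and 13.5 CPM with vehicle and 46.9, 42.4 and 37.2 CPM with selinexor. PMAIP1 (NOXA), likewise a BH3-only gene, was measured at 22.1, 20.7 and 20.3 CPM with vehicle and 11, 11.6 and 12.9 CPM with selinexor. The 2 genes moved in opposite directions, each with groups that did not overlap, and their log2 fold changes were 1.49 ± 0.10 and -0.83 ± 0.12. BAX, the pore-forming effector, changed by 0.72 ± 0.049. The death receptor genes TNFRSF10B (TRAIL receptor 2) and FAS changed by 1.27 ± 0.051 and 1.07 ± 0.11. FAS shares 380 exonic bases with ACTA2 on the opposite strand.

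In the BCL2 family as a whole, 5 of 13 tested members rose and 3 fell, beside 31.8% of all tested genes in each direction. BBC3, BAX, PMAIP1, BID and BCL2L1 are in both this list and that of p53 targets in cell death above. BMF, a BH3-only protein released from the cytoskeleton, was measured at 16.9, 18.9 and 18.3 CPM with vehicle and 51.3, 52.1 and 47.1 CPM with selinexor and changed by 1.47 ± 0.091. BCL2, the antiapoptotic founder of the family, changed by 0.27 ± 0.043 and MCL1, which myeloid cells depend on, by -0.21 ± 0.039. BCL2L1 and BCL2L11, which encode BCL-XL and BIM, did not pass (-0.14 ± 0.11 and 0.011 ± 0.054). Of 27 death receptor and caspase genes 12 rose and 7 fell, and TNFRSF10B, FAS and CASP1 are among those also in the list of p53 targets. CFLAR, the inhibitor of caspase 8 at death receptors, rose from 52.1 ± 1.16 to 129.7 ± 4.0 CPM (mean ± SD, n = 3), while cytochrome c (CYCS) fell, with a log2 fold change of -0.83 ± 0.038. CFLAR shares 2265 exonic bases with the pseudogene IMPDH1P10 on the opposite strand.

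Host transcripts of microRNAs known as p53 targets or growth regulators follow, all but MIR34AHG named after their values were seen. The mature microRNAs were not measured, since the libraries hold polyadenylated RNA. MIR34AHG (chr1:9148011-9198906, minus strand), the host of miR-34a, was measured at 1.58, 1.42 and 1.15 CPM with vehicle and 18.7, 19.5 and 14.9 CPM with selinexor, a log2 fold change of 3.68 ± 0.21. It shares 431 exonic bases with LNCTAM34A on the opposite strand. MIRLET7BHG, the host of let-7a-3 and let-7b, changed by 1.45 ± 0.23, and MIR155HG, the host of miR-155, by 0.82 ± 0.24. MIR17HG, the host of the miR-17 to miR-92a cluster, did not pass (-0.079 ± 0.21). The mature 5′ arms follow, from RefSeq (GRCh38.p14), with the seed (bases 2 to 8, which pairs with targets) in capitals, to show which hosts carry a shared seed. They lie at chr1:9151735-9151756, minus strand, at chr22:46112752-46112773, plus strand, at chr22:46113691-46113712, plus strand, at chr21:25573983-25574006, plus strand, at chr13:91350618-91350640, plus strand and at chr13:91351072-91351094, plus strand, in the order printed.
hsa-miR-34a-5p: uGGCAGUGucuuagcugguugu
hsa-let-7a-5p: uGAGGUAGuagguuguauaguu
hsa-let-7b-5p: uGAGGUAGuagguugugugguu
hsa-miR-155-5p: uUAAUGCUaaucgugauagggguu
hsa-miR-17-5p: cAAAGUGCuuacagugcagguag
hsa-miR-20a-5p: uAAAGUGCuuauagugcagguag
The let-7 pair of MIRLET7BHG has 1 seed in common, and so has the pair of MIR17HG. The hosts of miR-34a, let-7 and miR-155 were those whose transcript rose.

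Genes of the cell cycle fell almost throughout. Of 28 regulators of G1 and E2F, 23 fell (median -0.82). E2F8, a repressor of the E2F family, was measured at 37.3, 30.6 and 34.9 CPM with vehicle and 9.69, 8.65 and 9.0 CPM with selinexor. MYBL2, which joins the MuvB complex to activate late cell cycle genes, was measured at 299, 310.4 and 294 CPM with vehicle and 82.7, 75.8 and 87 CPM with selinexor. FOXM1, the forkhead factor of mitotic genes, was measured at 94.4, 93.2 and 90.5 CPM with vehicle and 24.1, 30.9 and 25.1 CPM with selinexor. In the 3 factors the groups did not overlap, and the log2 fold changes were -1.91 ± 0.12, -1.88 ± 0.047 and -1.79 ± 0.075. RBL2 (p130) and LIN54, parts of the DREAM repressor complex that assembles in quiescent cells, rose by 0.42 ± 0.052 and 0.35 ± 0.089. CDK6, the kinase of D cyclins, did not pass (-0.011 ± 0.035), and CCND2 did (0.34 ± 0.13, edgeR adjusted p = 0.017) but missed the threshold without vehicle library 1, selinexor library 2 or selinexor library 3 and with DESeq2 (adjusted p of 0.069 to 0.16).

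Replication genes fell, 44 of 45 of them, 33 at least 2-fold (median -1.15). CDT1, which loads the MCM helicase at origins, was measured at 198, 192 and 184 CPM with vehicle and 64.9, 66.3 and 58.6 CPM with selinexor. CDC45, which activates that helicase, was measured at 64.4, 74.7 and 70.6 CPM with vehicle and 20.8, 18.6 and 19.6 CPM with selinexor. MCM10, which joins it at the fork, changed by -1.76 ± 0.071, and the checkpoint adaptor CLSPN by -1.63 ± 0.066. The selinexor libraries lay below the vehicle libraries in all 4. ORC2, a subunit of the origin recognition complex, was the member that did not pass (-0.11 ± 0.083), and without selinexor library 3 it did (-0.21, edgeR adjusted p = 0.034). The supply of deoxynucleotides followed, with 11 of 14 genes falling (median -0.97). RRM2, the small subunit of ribonucleotide reductase, was measured at 243, 249 and 246 CPM with vehicle and 70.6, 72.9 and 71.9 CPM with selinexor, and thymidylate synthase (TYMS) at 347, 332 and 335 CPM with vehicle and 98.7, 97.5 and 100.5 CPM with selinexor. They changed by -1.78 ± 0.048 and -1.77 ± 0.043. SAMHD1, which breaks deoxynucleotides down, went the other way, at 23.7, 20.6 and 17.9 CPM with vehicle and 62.4, 58.9 and 59.7 CPM with selinexor, with a log2 fold change of 1.55 ± 0.087. Genes on the other strand overlap 1150 exonic bases of TYMS (ENOSF1) and 1159 of SAMHD1 (TLDC2).

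The lists of mitosis had the lowest medians. All 26 tested genes of mitotic entry and exit fell, 23 of them at least 2-fold (median -1.51), and so did all 13 kinesins, 12 at least 2-fold (median -1.77), and all 33 genes of the kinetochore and centromere, 29 at least 2-fold (median -1.52). UBE2C, the ubiquitin-conjugating enzyme of the anaphase-promoting complex, was measured at 117, 115 and 118 CPM with vehicle and 24, 23.1 and 22.7 CPM with selinexor. CCNB1, the cyclin B1 that drives entry into mitosis, was measured at 148, 165 and 144 CPM with vehicle and 35.8, 30.9 and 29.9 CPM with selinexor. CDK1, its kinase, was measured at 183, 172 and 170.3 CPM with vehicle and 41.2, 41.7 and 40.7 CPM with selinexor. No selinexor library reached a vehicle library in any of the 3, and the log2 fold changes were -2.33 ± 0.07, -2.24 ± 0.065 and -2.08 ± 0.058. Among the kinesins the changes ran from -0.82 ± 0.056 for KIF20B to -2.13 ± 0.10 for KIF23, the motor of the central spindle. BIRC5 (survivin) of the chromosomal passenger complex was measured at 143, 126 and 134 CPM with vehicle and 31.1, 26.2 and 32.2 CPM with selinexor. CENPA, the histone H3 variant that marks centromeres, was measured at 32.9, 32.2 and 29.2 CPM with vehicle and 7.61, 7.51 and 7.37 CPM with selinexor. NUF2 and SPC25 of the NDC80 complex, which binds microtubules, changed by -1.96 ± 0.091 and -1.97 ± 0.12. Of 16 genes of chromosome structure 14 fell, among them MKI67 (Ki-67), which coats mitotic chromosomes, at 428, 424 and 429 CPM with vehicle and 106, 111 and 97.7 CPM with selinexor, and TOP2A, which untangles them, with a log2 fold change of -1.75 ± 0.041. TOP2B, the other isoform, rose (0.26 ± 0.038).

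**Figure D3:**
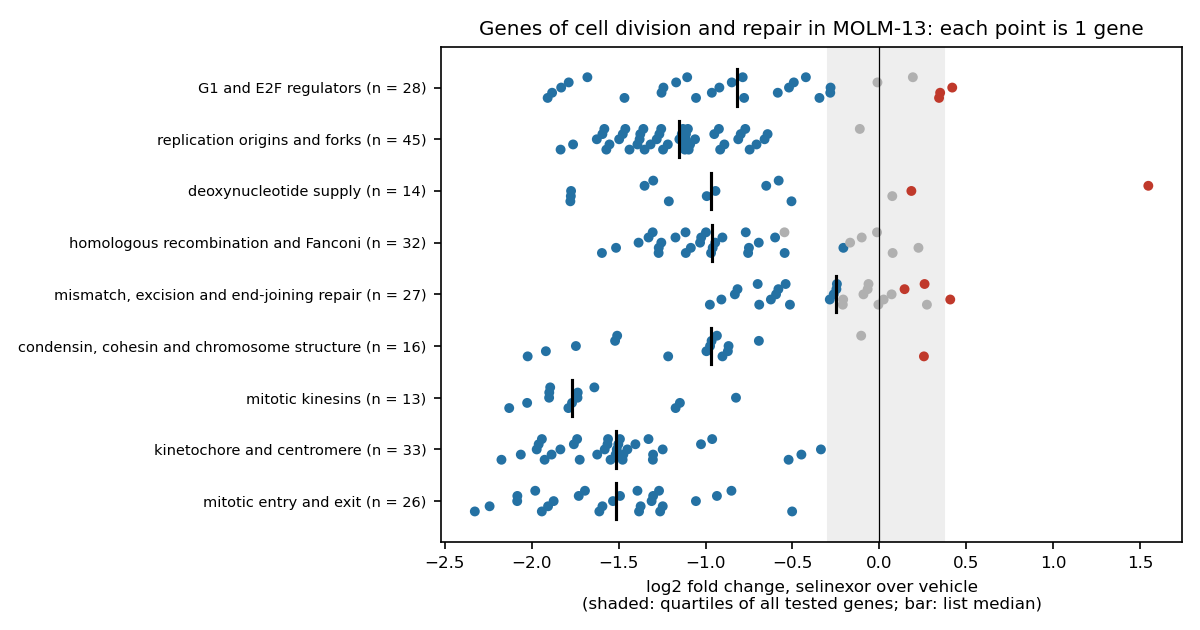
Log2 fold change (horizontal axis) of each tested gene in 9 lists of cell division and repair, blue where it fell, red where it rose and grey where it did not pass, with the list median as a black bar and the quartiles of all tested genes (-0.29 and 0.37) as the shaded band. The lists of mitosis lie furthest left, with medians of -1.77, -1.52 and -1.51, and the median of mismatch, excision and end-joining repair (-0.25) lies within the band.

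Late and early cell cycle genes are known for different promoter elements, so the sequence around their starts was searched. The CHR element (searched as TTTGAA or TTCGAA) is bound by MuvB, and the E2F site (searched as TTTGGCGC, TTTCCCGC, TTTGCCGC or TTTCGCGC) by E2F and its partners. The RefSeq window of 250 bases before to 50 bases after the start was read on both strands for 6630 tested genes with exactly 1 window (GRCh38.p14). CHR matches were found in 10.9% of all windows and in 35.6% of those of genes that fell at least 2-fold, 88 of 247. They were in 9 of 12 windows of mitotic entry and exit (75%), 9 of 12 of the kinesins (75%), 18 of 23 of the kinetochore and centromere (78.3%) and 1 of 31 of replication (3.23%). They were also in 6 of 8 windows of chromosome structure (75%). In lists that did not fall as a group they were in 5 of 8 windows of the monocyte and macrophage markers (62.5%) and 3 of 4 of HLA class II (75%). Over all windows they were in 14.6% of genes that fell, 8.38% of those that rose and 9.66% of those that did neither. The match was thus more frequent in genes that fell but not confined to them. E2F matches were in 5.75% of all windows, in 17 of 31 of replication (54.8%) and in 48 of 247 of genes that fell at least 2-fold (19.4%). The box of the factor NF-Y (CCAAT) was in 38.3% of all windows and in 56.7% of those of genes that fell at least 2-fold. CHR and E2F matches shared no base in any window, and CHR and NF-Y matches overlapped in 5. A match is a run of letters and was not tested for binding.

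The 80 bases before the RefSeq start are shown for the 5 genes of the mitosis lists with the largest falls among those with a CHR match there, with the match in capitals. They lie at chr15:69414269-69414348 (plus strand), chr2:26785976-26786055 (plus strand), chr15:59105066-59105145 (plus strand), chr16:23678809-23678888 (plus strand) and chr1:43358901-43358980 (plus strand), and each reads 5′ to 3′ on the strand of its gene.
KIF23: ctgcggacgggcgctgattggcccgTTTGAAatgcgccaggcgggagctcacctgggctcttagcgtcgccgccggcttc
CENPA: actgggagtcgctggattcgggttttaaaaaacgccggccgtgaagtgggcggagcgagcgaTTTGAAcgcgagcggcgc
CCNB2: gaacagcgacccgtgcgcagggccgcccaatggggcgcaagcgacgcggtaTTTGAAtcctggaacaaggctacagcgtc
PLK1: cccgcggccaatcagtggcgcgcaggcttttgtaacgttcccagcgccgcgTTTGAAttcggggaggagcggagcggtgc
CDC20: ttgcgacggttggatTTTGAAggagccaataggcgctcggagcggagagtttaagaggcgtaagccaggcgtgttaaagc
CCNB2, PLK1 and CDC20, which encode cyclin B2, polo-like kinase 1 and the CDC20 activator of anaphase, changed by -1.98 ± 0.075, -1.94 ± 0.054 and -1.91 ± 0.053. The 4 replication genes with the largest falls among those with an E2F match in the same stretch lie at chr16:88803709-88803788 (plus strand), chr16:85688955-85689034 (minus strand), chr13:33818069-33818148 (plus strand) and chr1:212035668-212035747 (plus strand), again with matches in capitals, read on the gene's strand.
CDT1: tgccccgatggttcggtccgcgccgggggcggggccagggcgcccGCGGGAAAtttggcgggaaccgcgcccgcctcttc
GINS2: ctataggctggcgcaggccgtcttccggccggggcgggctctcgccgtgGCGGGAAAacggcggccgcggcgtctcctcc
RFC3: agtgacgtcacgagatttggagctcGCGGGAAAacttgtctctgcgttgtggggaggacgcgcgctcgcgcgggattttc
DTL: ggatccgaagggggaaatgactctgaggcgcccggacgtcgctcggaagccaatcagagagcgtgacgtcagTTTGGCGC
In CDT1, GINS2 and RFC3 the capitals (GCGGGAAA) are the reverse complement of TTTCCCGC. GENCODE 29 places the outermost start of some of these genes further upstream. GINS2 of the helicase, RFC3 of the clamp loader and DTL of the ligase that destroys CDT1 changed by -1.57 ± 0.09, -1.38 ± 0.062 and -1.32 ± 0.064.

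**Figure D4:**
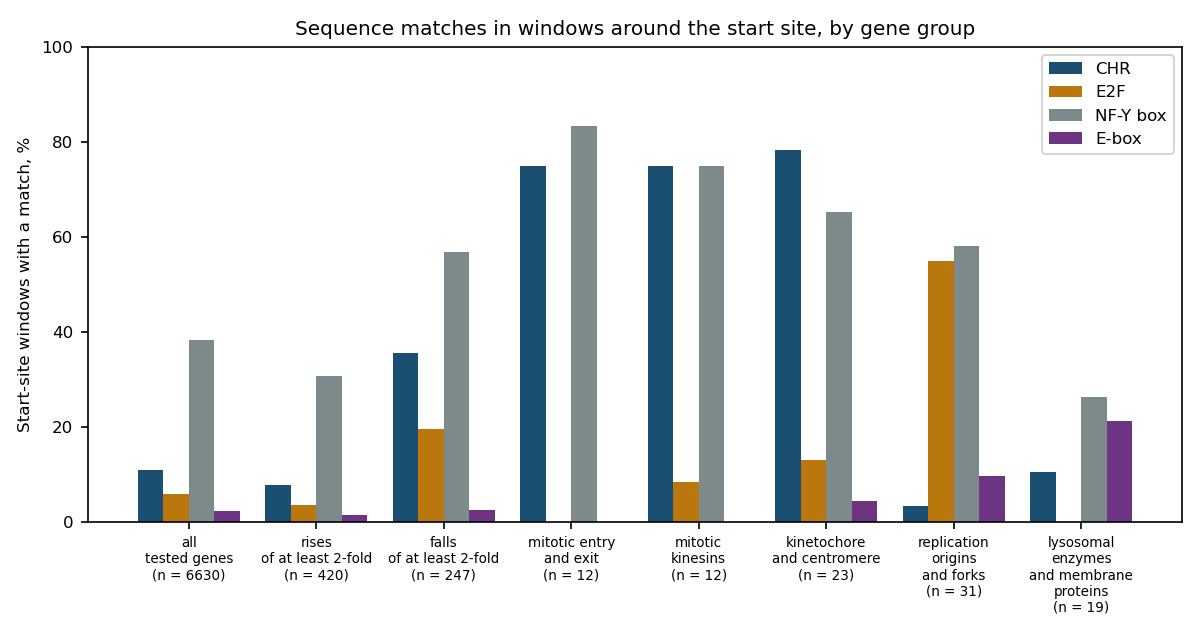
Percent of start-site windows (vertical axis, from 0) with a match to the CHR, E2F, NF-Y or E-box sequence, for all tested genes with a window, for genes that rose or fell at least 2-fold and for 5 gene lists, with the number of windows under each group. CHR bars are high in the 3 mitosis lists (75, 75 and 78.3%) and low in replication (3.23%), where the E2F bar is high (54.8%). Lists not drawn include some with as high a CHR share from few windows, such as HLA class II (75% of 4).

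DNA repair genes divided by pathway. In homologous recombination and the Fanconi pathway 26 of 32 fell (median -0.96). EXO1, the nuclease that resects breaks, changed by -1.6 ± 0.074, the checkpoint kinase CHEK1 by -1.52 ± 0.083 and BRCA1 by -1.39 ± 0.066, while FANCA did not pass (-0.013 ± 0.065). In mismatch, excision and end-joining repair 15 of 27 fell and 3 rose (median -0.25). The helicase of excision repair ERCC2 rose (0.41 ± 0.07).

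Replication-dependent histone genes, whose normal messages end in a stem loop without a poly(A) tail, were sparse in these poly(A)-selected libraries. Of 37 listed genes 28 were in the table and 13 were tested, 10 of which rose and 2 fell, and a gene at such a level is tested mostly because 1 group is high. HIST1H2BK was measured at 3.4, 2.52 and 3.04 CPM with vehicle and 50.5, 56.6 and 60.2 CPM with selinexor. HIST1H4I was measured at 1.7, 0.875 and 1.26 CPM with vehicle and 20.4, 22.9 and 20.7 CPM with selinexor. HIST1H2AC was measured at 0.608, 0.657 and 0.209 CPM with vehicle and 12.6, 10.0 and 9.62 CPM with selinexor. In these 3 every selinexor library was above every vehicle library, with log2 fold changes of 4.22 ± 0.13, 4.07 ± 0.20 and 4.43 ± 0.31. HIST2H2AC fell, with 2.43, 2.08 and 2.2 CPM with vehicle and 0.231, 0.521 and 0.25 CPM with selinexor. The sum of the 28 genes went from between 23.3 and 30.7 CPM to between 123 and 136 CPM, and because near-identical histone genes can share reads, the values of single genes are uncertain. Histone variants and high-mobility proteins went the other way, 14 of 21 falling (median -0.63). H2AFZ, which encodes H2A.Z, was measured at 749, 774 and 751 CPM with vehicle and 265, 279 and 273 CPM with selinexor, and HMGB1, a DNA-bending protein, at 1328, 1288 and 1289 CPM with vehicle and 370.1, 352 and 375 CPM with selinexor. H1F0, the linker histone of resting cells, rose, at 5.35, 3.83 and 4.5 CPM with vehicle and 11.9, 10.0 and 14.1 CPM with selinexor.

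Transcripts of leukaemia maintenance showed small changes. Of 21 tested KMT2A fusion targets and stem factors, 4 rose and 8 fell, with a median of -0.011, beside 31.8% of all tested genes in each direction. Leaving out 1 library gave 6 to 9 falls. MEIS1, the cofactor of HOXA9, was measured at 32.6, 35.7 and 31.4 CPM with vehicle and 22.6, 22.5 and 22.9 CPM with selinexor, a log2 fold change of -0.55 ± 0.094. HOXA9 itself was measured at 43.5, 49.2 and 49.3 CPM with vehicle and 38.2, 42.5 and 40.7 CPM with selinexor. It changed by -0.23 ± 0.079 (edgeR adjusted p = 0.0088), and missed the threshold without selinexor library 1 or vehicle library 3 (adjusted p of 0.055 and 0.050). HOXA10 and MEF2C, a myocyte enhancer factor also active in AML, changed by -0.79 ± 0.07 and -0.78 ± 0.044. MYB, a factor of blood progenitors, rose by 0.44 ± 0.034. MEIS1, HOXA9, HOXA10 and MEF2C each share exonic bases with an antisense gene. MYC rose, at 489, 505 and 519 CPM with vehicle and 771, 742 and 706 CPM with selinexor, a log2 fold change of 0.55 ± 0.034.

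Several genes of myeloid differentiation rose. CEBPA, the factor of granulocyte commitment that is also in the list of p53 targets, was measured at 614, 598 and 597 CPM with vehicle and 1178, 1203 and 1159 CPM with selinexor. IRF8, the factor of the monocyte path, was measured at 541, 566 and 558 CPM with vehicle and 947, 927 and 924 CPM with selinexor. Both were apart between groups, with log2 fold changes of 0.97 ± 0.031 and 0.75 ± 0.032. Over the 18 tested myeloid transcription factors 8 rose and 4 fell (median 0.023), beside 31.8% of all tested genes in each direction. Leaving out 1 library gave 3 to 6 falls. EGR1 and KLF6 were among the factors that fell (-0.69 ± 0.18 and -0.66 ± 0.14). Of 23 granule proteins 13 were tested, 11 rose and CTSG, cathepsin G, fell. PRTN3, proteinase 3 of the azurophil granule, was measured at 904, 918 and 921 CPM with vehicle and 2265, 2374 and 2289 CPM with selinexor. CFD, complement factor D, was measured at 314, 306 and 305 CPM with vehicle and 946, 929 and 902 CPM with selinexor. SRGN, the proteoglycan that packs granule contents, was measured at 1315, 1254 and 1229 CPM with vehicle and 3264, 3081 and 3322 CPM with selinexor. All 3 had groups that did not overlap, with log2 fold changes of 1.34 ± 0.03, 1.59 ± 0.034 and 1.35 ± 0.03. ELANE, neutrophil elastase, rose by less (0.30 ± 0.03), and MPO, myeloperoxidase, was measured at 28.6, 32.2 and 32.9 CPM with vehicle and 72, 66.5 and 67.1 CPM with selinexor. CAMP, LTF, LCN2 and MMP8, proteins of later granules, have no row among the genes analysed here.

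Of 30 monocyte and macrophage markers 15 were tested, of which 9 rose and 1 fell, beside 31.8% of all tested genes in each direction. LYZ, lysozyme, was measured at 113, 117 and 118 CPM with vehicle and 971, 922 and 981 CPM with selinexor. TYROBP, the adaptor DAP12 of myeloid receptors, was measured at 16.9, 19.3 and 19.2 CPM with vehicle and 48.9, 47 and 38.1 CPM with selinexor. Neither gene's groups overlapped, and the log2 fold changes were 3.04 ± 0.038 and 1.28 ± 0.096. FCGR1A, the high-affinity receptor for IgG, fell, at 47.9, 42.5 and 41 CPM with vehicle and 26.5, 25.3 and 23.9 CPM with selinexor, and CSF1R, the receptor of macrophage colony-stimulating factor, was near the floor and did not pass (0.38 ± 0.38). LYZ shares 599 exonic bases with a gene on the opposite strand. Among receptors for growth factors 7 of 13 rose and 2 fell, or 1 without selinexor library 3 or vehicle library 3 and with DESeq2. CSF3R, the receptor for G-CSF, went from 24.7 ± 3.03 to 92 ± 9.26 CPM (mean ± SD, n = 3), and FLT3 was measured at 298, 297 and 308 CPM with vehicle and 391, 389 and 403 CPM with selinexor. They changed by 1.89 ± 0.078 and 0.39 ± 0.036, with the selinexor libraries above the vehicle libraries in both. Among 17 tested adhesion and homing genes 11 rose and CX3CR1 fell, joined by a further fall without selinexor library 1. CXCR4, which holds blasts in the marrow, was measured at 78.9, 76.5 and 69 CPM with vehicle and 177, 178 and 168 CPM with selinexor. CCR2 and SELPLG, the ligand of P-selectin, changed by 1.37 ± 0.099 and 0.83 ± 0.058, and the integrin chain ITGB1 had a log2 fold change of -6.7e-04 and did not pass.

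Signalling genes downstream of FLT3 were mixed. Of 24 tested outputs of STAT5 and ERK 12 rose and 5 fell (median 0.48), beside 31.8% of all tested genes in each direction. PIM1, a survival kinase, and CISH, a feedback inhibitor, rose by 0.95 ± 0.13 and 1.0 ± 0.092, and FOS by 1.26 ± 0.12, while SOCS2 fell (-0.47 ± 0.048). With DESeq2 3 outputs fell. Of 30 components of PI3K, AKT and mTOR signalling 11 rose and 9 fell, near the shares of all genes. AKT1 and the translation repressor EIF4EBP1 fell, with log2 fold changes of -0.59 ± 0.051 and -0.86 ± 0.043, and the phosphatase INPP4B rose, at 5.1, 4.71 and 4.71 CPM with vehicle and 18.3, 17.7 and 21.4 CPM with selinexor. FOXO factors, which AKT holds in the cytoplasm, and genes they are known to activate rose in 16 of 24 cases (median 0.69). ARRDC3 (chr5:91368724-91383359, minus strand), an arrestin that marks receptors for degradation, was measured at 1.58, 1.64 and 1.99 CPM with vehicle and 81.3, 73.4 and 85.2 CPM with selinexor. The groups were far apart and the log2 fold change of 5.50 ± 0.13 was the largest of the genes named by rule. TXNIP, its relative that lowers glucose uptake, was measured at 48.3, 50.4 and 50.9 CPM with vehicle and 130.1, 143 and 142 CPM with selinexor, and CAT, catalase, changed by 0.90 ± 0.039. SOD2 and CDKN1B (p27), also known FOXO targets, fell, with log2 fold changes of -0.35 ± 0.065 and -0.28 ± 0.069. Of 12 tested purinergic genes 5 rose, 1 fell and 6 did not pass, beside 31.8% of all tested genes in each direction. P2RY2 and P2RX1, receptors for extracellular ATP, changed by 1.52 ± 0.051 and 1.48 ± 0.076 and the ectoenzyme CD38 by 1.6 ± 0.079. PANX1 fell (-0.36 ± 0.098), and ENTPD1 (CD39) had a log2 fold change of -0.0097 and did not pass.

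**Figure D5:**
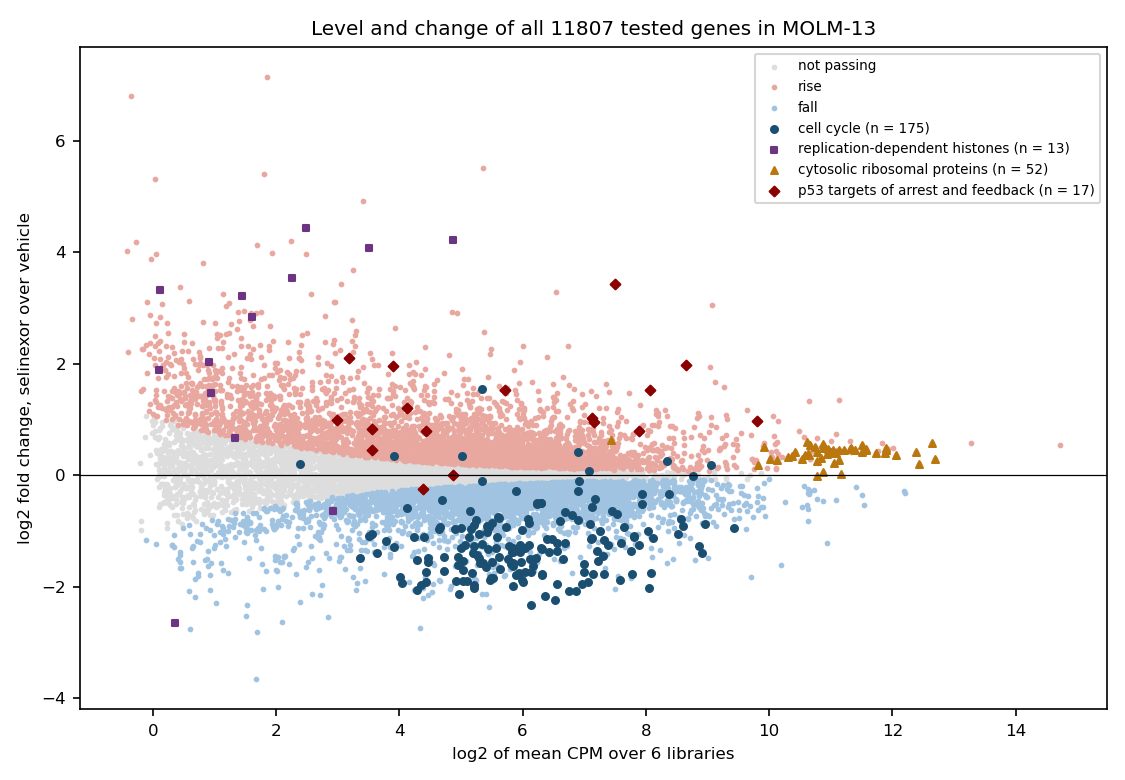
Log2 fold change (vertical axis) of each of the 11807 tested genes against the log2 of its mean CPM over the 6 libraries (horizontal axis), with rises in pale red, falls in pale blue, genes that did not pass in grey and 4 groups of lists marked. Cell cycle genes (dark blue) lie mostly below 0, ribosomal proteins (ochre) have high CPM and lie close above 0, and histones (purple) have low CPM and lie mostly above.

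Stress programs were mostly lower. In the ATF4 response, which restores amino acid supply, 22 of 31 genes fell and 4 rose (median -0.42). PHGDH, the first enzyme of serine synthesis, was measured at 287, 291 and 297 CPM with vehicle and 79.7, 88.5 and 82.2 CPM with selinexor. PSAT1, the next enzyme, was measured at 354, 338 and 329 CPM with vehicle and 95.4, 92.7 and 96.5 CPM with selinexor. STC2, a secreted glycoprotein, was measured at 19.9, 22.5 and 20.2 CPM with vehicle and 6.46, 5.32 and 6.75 CPM with selinexor. The selinexor libraries lay below the vehicle libraries in each, with log2 fold changes of -1.80 ± 0.046, -1.84 ± 0.044 and -1.77 ± 0.14. DDIT4, an inhibitor of mTORC1, did not pass (-0.062 ± 0.047), and EIF2AK4, the GCN2 kinase upstream of ATF4, rose (0.80 ± 0.10). In the unfolded protein response 12 of 21 fell, with SDF2L1 (-1.11 ± 0.077) and the chaperone HSPA5 (-0.57 ± 0.037) among them, and the sensor ERN1 rose (0.78 ± 0.13). Of 23 heat shock genes 17 fell and HSPA4L rose (1.02 ± 0.11), and HSF1, their main activator, did not pass (-0.0078 ± 0.048). Proteasome subunits fell in 25 of 32 cases (median -0.50), led by the lid subunit PSMD11 at 126, 127 and 136 CPM with vehicle and 65.4, 67.3 and 62.7 CPM with selinexor. Of 22 antioxidant genes 13 fell and 4 rose. NQO1, a quinone reductase, changed by -0.94 ± 0.099, and the ferritin heavy chain FTH1, which shares 1267 exonic bases with BEST1 on the opposite strand, by 1.12 ± 0.037.

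Translation genes moved in opposite directions by function. Of 52 cytosolic ribosomal protein genes 49 rose, none by 2-fold, with a median of 0.42. Their summed level went from between 107233 and 109161 CPM with vehicle to between 140157 and 142781 CPM with selinexor. RPS18 was measured at 5224, 5022 and 5132 CPM with vehicle and 7474, 7575 and 7896 CPM with selinexor, and RPSA and RPS15 did not pass (0.018 ± 0.028 and -0.011 ± 0.029). The 10 most abundant genes took 6.88 to 6.94% of counts with vehicle and 8.70 to 8.98% with selinexor. EEF2, the elongation factor of translocation, was measured at 7881, 7934 and 7924 CPM with vehicle and 11625, 11806 and 12063 CPM with selinexor, a log2 fold change of 0.58 ± 0.025. The 26 translation factors split into 14 rises and 11 falls: EIF3E and TPT1 rose, by 0.60 ± 0.03 and 0.58 ± 0.027, and the cap-binding EIF4E and EIF5A fell, with log2 fold changes of -0.70 ± 0.062 and -0.63 ± 0.031. Ribosome biogenesis fell in 29 of 36 cases (median -0.33), led by RRP9 of the small-subunit processome (-0.77 ± 0.066), the large-subunit assembly factor MRTO4 (-0.76 ± 0.049) and the nucleolar helicase DDX21, measured at 993, 969 and 976 CPM with vehicle and 617, 618 and 641 CPM with selinexor. POLR1B of RNA polymerase I did not pass (0.0084 ± 0.054). Of 20 tRNA synthetases 17 fell, such as GARS (-0.91 ± 0.042), and QARS rose (0.68 ± 0.035). Of 28 splicing regulators 22 fell (median -0.51), among them SRSF7 at 269, 306 and 287 CPM with vehicle and 136, 135 and 143 CPM with selinexor and HNRNPA2B1 (-0.82 ± 0.029), while the kinases of SR proteins CLK1 and CLK4 rose by 0.53 ± 0.078 and 0.71 ± 0.12.

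Metabolic genes fell by smaller amounts, with 1 exception in the mitochondrial genome. Of 30 genes of sterol and fatty acid synthesis 19 fell and 4 rose. SCD, which desaturates fatty acids, was measured at 483, 482 and 487 CPM with vehicle and 162, 159.96 and 165 CPM with selinexor, and SREBF1, the factor that drives lipid synthesis, changed by -1.06 ± 0.054 while SREBF2 rose (0.21 ± 0.042). In glycolysis and hypoxia 15 of 27 fell and 7 rose. LDHA, lactate dehydrogenase, was measured at 1042, 1061 and 1047 CPM with vehicle and 545, 512 and 551 CPM with selinexor, and NDRG1, a hypoxia-induced gene, rose by 0.95 ± 0.05. In the citric acid cycle 22 of 26 fell (median -0.25). IDH2, the mitochondrial isocitrate dehydrogenase, was measured at 245, 258 and 249 CPM with vehicle and 115, 117 and 117 CPM with selinexor, and fumarase (FH) changed by -0.87 ± 0.045. Nuclear genes of the respiratory chain fell in 26 of 33 cases (median -0.24), whereas 12 of 13 transcripts of the mitochondrial genome rose (median 0.47). CYTB, cytochrome b, was measured at 222, 242 and 247 CPM with vehicle and 412, 432 and 464 CPM with selinexor. Its groups did not overlap, and the mitochondrial transcripts together took 0.624 to 0.676% of counts with vehicle and 0.858 to 0.924% with selinexor. A rise of this share can also mark RNA quality, whose part in the result was not tested.

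Of 35 tested lysosomal genes 18 rose and 9 fell (median 0.22), beside 31.8% of all tested genes in each direction. With DESeq2 5 of them fell. PSAP, the precursor of the saposins that help break down sphingolipids, was measured at 204, 191 and 194 CPM with vehicle and 449.7, 442 and 429 CPM with selinexor. GRN, progranulin, was measured at 171, 173 and 182 CPM with vehicle and 403, 411 and 375 CPM with selinexor. TPP1, a peptidase, was measured at 55.1, 42.7 and 46.5 CPM with vehicle and 111, 106 and 109 CPM with selinexor. In the 3 genes the groups were apart, with log2 fold changes of 1.16 ± 0.038, 1.18 ± 0.04 and 1.18 ± 0.065, and the cathepsins CTSB and CTSC fell (-0.43 ± 0.048 and -0.56 ± 0.045). The E-box form bound by TFEB and its relatives (TCACGTGA, both strands) was in 4 of 19 lysosomal windows (21.1%) and in 2.14% of all windows. The stretch of GAA, the acid glucosidase, at chr17:80101501-80101580 (plus strand) is shown as that of the largest rise with the form there, which it holds at 2 places (in capitals). GAA rose by 1.08 ± 0.085. The other 3 genes with the form did not rise: LAMP1, a lysosomal membrane protein, and MCOLN1, a lysosomal cation channel, hold it at 2 places and changed by -0.28 ± 0.038 and -0.29 ± 0.12, and CTSA, cathepsin A, holds it at 1 and did not pass (-0.058 ± 0.066). The E-box and NF-Y searches overlapped in 1 window.
GAA: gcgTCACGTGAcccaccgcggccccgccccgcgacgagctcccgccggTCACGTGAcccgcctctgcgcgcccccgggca
Of 31 genes of the vacuolar ATPase and autophagy 16 rose and 5 fell, beside 31.8% of all tested genes in each direction. Only 3 fell with DESeq2 or without selinexor library 1. OPTN, an autophagy receptor, was measured at 4.86, 11.6 and 7.22 CPM with vehicle and 25.3, 28.1 and 30.6 CPM with selinexor, and its vehicle libraries differed widely.

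Immune genes rose in part. Of 25 tested type I interferon genes 9 rose and 3 fell, beside 31.8% of all tested genes in each direction. STAT2, part of the interferon-activated factor, was measured at 30.9, 29.1 and 28.9 CPM with vehicle and 73.2, 73.5 and 74.5 CPM with selinexor, and BST2 (tetherin) changed by 1.20 ± 0.054. Without TMM, on library size alone, 5 interferon genes fell. In HLA class I and peptide loading 8 of 14 rose and 2 fell. HLA-B was measured at 211, 209 and 212 CPM with vehicle and 438, 450.4 and 432 CPM with selinexor. HLA class II genes were low: HLA-DMA rose, at 6.68, 6.35 and 6.07 CPM with vehicle and 12.8, 13.8 and 14.6 CPM with selinexor, and HLA-DPA1 fell, at 8.26, 9.19 and 7.75 CPM with vehicle and 3.34, 4.28 and 2.75 CPM with selinexor. Of 20 tested genes of Toll-like receptors and NF-kB 10 rose and 4 fell. TLR2 was measured at 3.16, 2.85 and 2.62 CPM with vehicle and 8.3, 9.91 and 9.12 CPM with selinexor, NFKB2 changed by 1.01 ± 0.088 and TNF by 0.75 ± 0.052, and RELA did not pass (0.078 ± 0.057).

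Among the 15 largest rises and 15 largest falls of genes with a mean of at least 5 CPM, several lie outside the lists. SLC16A9, a transporter of the monocarboxylate family, was measured at 0.972, 0.766 and 0.314 CPM with vehicle and 21.8, 19.6 and 20.1 CPM with selinexor. CYTIP, which binds cytohesin in leukocytes, was measured at 7.78, 6.89 and 5.65 CPM with vehicle and 49.5, 49.5 and 55.2 CPM with selinexor. PNOC, the precursor of nociceptin, was measured at 0.243, 0.766 and 0.942 CPM with vehicle and 11.4, 12.3 and 8.0 CPM with selinexor. These 3 genes were near the floor or low with vehicle and higher in every selinexor library. At the other end, CDKN3, a phosphatase of cyclin-dependent kinases, was measured at 36, 33.2 and 36.3 CPM with vehicle and 4.96, 4.38 and 6.5 CPM with selinexor. APOBEC3B, a cytidine deaminase of single-stranded DNA, was measured at 13.4, 12 and 11.4 CPM with vehicle and 2.08, 1.67 and 2.62 CPM with selinexor. DLGAP5, a spindle assembly factor, was measured at 71.3, 68.9 and 79.3 CPM with vehicle and 13.5, 14.6 and 14.6 CPM with selinexor. Their groups did not overlap either, and log2 fold changes were -2.75 ± 0.13, -2.54 ± 0.22 and -2.36 ± 0.089. GTSE1, CEP55, PIMREG, PIF1 and PBK, all with known roles in mitosis or genome upkeep, fell, with log2 fold changes between -2.14 and -2.09. FAM72B fell (-2.15 ± 0.12) but has near-identical copies that can share its reads. FGF17, a fibroblast growth factor named after its values were seen, was measured at 0, 0 and 0 CPM with vehicle and 1.85, 1.46 and 1.37 CPM with selinexor (at least 14-fold higher, with 3 counts over the vehicle libraries together as the floor).

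Noncoding and coding transcripts divided differently between rises and falls, which was not tested as such. Of 453 tested long noncoding genes 182 rose (40.2%) and 69 fell (15.2%), and of 10902 protein-coding genes 3407 rose (31.3%) and 3618 fell (33.2%). Low level moved with this: of genes at 1 to 5 CPM 35.3% rose and 8.76% fell, and of genes over 100 CPM 30.9% rose and 53.6% fell, and the part of level in the difference between gene types was not tested. MALAT1 (chr11:65497688-65506516, plus strand), a nuclear transcript of speckles, was measured at 16.9, 16.3 and 18.5 CPM with vehicle and 169, 175 and 163 CPM with selinexor, a log2 fold change of 3.29 ± 0.069. It shares 396 exonic bases with a gene on the opposite strand. NEAT1, the scaffold of paraspeckles, was measured at 25.3, 25.5 and 22.5 CPM with vehicle and 102, 112 and 83.8 CPM with selinexor, and PURPL, a p53-induced transcript, at 7.41, 7.77 and 6.49 CPM with vehicle and 57.7, 51.6 and 53.4 CPM with selinexor. Both are named after their values were seen, and both were higher in every selinexor library. Poly(A) selection captures such nuclear transcripts only in part.

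Some of these responses differed from those of OCI-AML2. In the interaction of line and treatment over 12 libraries (edgeR's quasi-likelihood test, adjusted p under 0.05), 3768 of 12530 genes differed (30.1%), 1388 with a higher response in MOLM-13 (11.1%) and 2380 with a lower one (19%). These counts depended on single libraries: 2084 were higher without OCI-AML2 vehicle library 2, and 1450 and 1542 were lower without MOLM-13 vehicle library 2 and OCI-AML2 vehicle library 1. Replication genes were lower in 43 of 45 cases, that is, they fell further in MOLM-13, as were 22 of 26 genes of mitotic entry and exit and 25 of 33 of the kinetochore and centromere. Of 17 p53 targets of arrest and feedback 8 were higher and 1 lower in MOLM-13, of 37 lysosomal genes 4 were higher and 22 lower, and of 36 genes of ribosome biogenesis 15 were higher and 2 lower. XPO1 and CDKN1A did not pass (differences of -0.014 ± 0.055 and -0.013 ± 0.068). The granule proteins show how single genes differed within a list: PRTN3 rose in MOLM-13 (1.34 ± 0.03) and fell in OCI-AML2 (-0.22 ± 0.05), a difference of 1.51 ± 0.057 (edgeR adjusted p = 4.3e-39), whereas CFD rose in both and further in OCI-AML2 (2.69 ± 0.046), a difference of -1.15 ± 0.058 (edgeR adjusted p = 7.4e-31).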

How the data were processed

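Polyadenylated RNA was sequenced from non-strand-specific libraries, per the labels' protocols. Reads were aligned to hg38 with STAR, and R 3.6.1 and DESeq2 were also used, per the submitters' processing notes. Which program counted reads, and on which annotation, is not given in the sources used here. For each line the authors deposited a table of unnormalised counts per gene; the count columns carry the group and no replicate number, so libraries are numbered within a group as names only. The deposited normalized tables and the authors' fold change table were not used.

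The MOLM-13 counts were fitted alone with edgeR 4.0.16 (limma 3.58.1, R 4.3.3) after filterByExpr (minimum count 10, minimum total 15), with TMM factors, a quasi-likelihood fit and Benjamini-Hochberg adjustment at 0.05; the genes left out held 0.109% of counts. The interaction of line and treatment was fitted to the counts of both tables. Other normalisations, no filter, DESeq2 1.42.0, limma voom and leaving out each library were tried.

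The comparison and the 55 gene lists were chosen with earlier results of these data known. Genes named are the 15 largest rises and falls with a mean of at least 5 CPM and groups that do not overlap, XPO1, CDKN1A, MDM2, FLT3, MYC, MEIS1, HOXA9, MCL1 and BCL2, up to 4 rises and 4 falls of each list (all members of lists with at most 14 tested), up to 2 members per list at 20 CPM or more with the largest unadjusted p, and up to 15 listed genes in each direction with the largest difference between lines. CD33, SPI1, ITGAM, CD14 and genes named for their promoter windows or as named after their values were seen fall outside that rule, and some genes it names are not reported here. Mitochondrial genes were respelled to the table's names once the table had been read. GENCODE 29 gave positions and opposite-strand overlaps for 11491 tested genes (97.3%). Promoter and microRNA sequences are from RefSeq (GRCh38.p14).

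The fit was also run on simulated counts of this comparison, with 11798 genes in the step. Only a small share of genes was changed there, at random up or down, and every gene had the same spread between libraries. The fit recovered 69 of 79 genes changed 1.5-fold (87.3%), 56 of 57 changed 2-fold (98.2%) and 60 of 60 changed 4-fold. It called 14 unchanged genes. In the data 63.6% of genes changed and the balance moved with level, so these rates are not those of the comparison itself.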

Additional observations from a re-analysis of the deposited data

Results flagged for a closer look

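The genes below differed between lines in the response to selinexor by edgeR's quasi-likelihood interaction test over 12 libraries (Benjamini-Hochberg adjusted p under 0.05, from 4.3e-39 to 0.041). Each value is the log2 fold change in MOLM-13 minus that in OCI-AML2, and line and dose cannot be told apart.

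Among p53 regulators and targets, MDM2 differed by 1.23 (1.98 in MOLM-13, 0.71 in OCI-AML2) and TRIM22 differed by 1.07 (3.43 in MOLM-13, 2.31 in OCI-AML2). CYFIP2 differed by 1.34 (2.25 in MOLM-13, 0.86 in OCI-AML2) and TIGAR differed by 1.42 (0.80 in MOLM-13, -0.66 in OCI-AML2). The TIGAR difference was 0.94 and missed the threshold without OCI-AML2 selinexor library 3.

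Among granule, lysosomal and monocyte genes, MPO differed by 1.61 (1.13 in MOLM-13, -0.53 in OCI-AML2) and PRTN3 differed by 1.51 (1.34 in MOLM-13, -0.22 in OCI-AML2). CTSG differed by -1.45 (-0.56 in MOLM-13, 0.85 in OCI-AML2) and CFD differed by -1.15 (1.59 in MOLM-13, 2.69 in OCI-AML2). SERPINB1 differed by -1.22 (0.48 in MOLM-13, 1.65 in OCI-AML2) and GRN differed by -1.32 (1.18 in MOLM-13, 2.45 in OCI-AML2). CTSA differed by -1.24 (-0.058 in MOLM-13, 1.13 in OCI-AML2) and FCGR2A differed by -1.19 (-0.22 in MOLM-13, 0.92 in OCI-AML2).

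Among genes of metabolism and amino acid supply, PHGDH differed by -1.44 (-1.80 in MOLM-13, -0.41 in OCI-AML2) and SLC7A11 differed by -2.12 (-0.51 in MOLM-13, 1.56 in OCI-AML2). IDH2 differed by -1.48 (-1.11 in MOLM-13, 0.32 in OCI-AML2) and GCLM differed by 1.17 (-0.44 in MOLM-13, -1.66 in OCI-AML2). TK1 differed by -1.29 (-1.78 in MOLM-13, -0.53 in OCI-AML2) and ND5 differed by 0.84 (0.77 in MOLM-13, -0.12 in OCI-AML2). HERPUD1 differed by 0.85 (0.01 in MOLM-13, -0.89 in OCI-AML2).

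Among signalling and immune genes, RELB differed by 1.04 (1.05 in MOLM-13, -0.044 in OCI-AML2) and NFKBIZ differed by 0.98 (0.58 in MOLM-13, -0.45 in OCI-AML2). IER3 differed by 1.28 (0.83 in MOLM-13, -0.50 in OCI-AML2) and DUSP5 differed by 0.84 (-0.47 in MOLM-13, -1.36 in OCI-AML2). PIK3R3 differed by 1.02 (-1.22 in MOLM-13, -2.29 in OCI-AML2) and HLA-DPA1 differed by -2.62 (-1.26 in MOLM-13, untested in OCI-AML2 (11 counts with vehicle and 23 with selinexor)). RIPK3 differed by -1.58 (-0.0076 in MOLM-13, untested in OCI-AML2 (18 counts with vehicle and 44 with selinexor)). The RIPK3 difference missed the threshold without OCI-AML2 vehicle library 2 (-0.85), OCI-AML2 selinexor library 3 (-1.14), MOLM-13 vehicle library 2 (-1.49) or MOLM-13 selinexor library 2 (-1.46), with edgeR adjusted p of 0.052 to 0.21. The DUSP5 difference missed it without MOLM-13 vehicle library 1 or 3, MOLM-13 selinexor library 1 or 2, or OCI-AML2 selinexor library 1 or 2 (0.75 to 0.85, edgeR adjusted p of 0.068 to 0.11).

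Among chromatin, stem cell and division genes, H1F0 differed by 5.46 (1.39 in MOLM-13, untested in OCI-AML2 (7 counts with vehicle and 0 with selinexor)) and HOXA10 differed by -1.19 (-0.79 in MOLM-13, 0.35 in OCI-AML2). SKA1 differed by -1.16 (-1.74 in MOLM-13, -0.62 in OCI-AML2) and RMI2 differed by -1.62 (-0.69 in MOLM-13, 0.88 in OCI-AML2). The value of H1F0 rests on 7 counts in OCI-AML2 in all.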

How the results depend on the processing

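Of 489 named genes 448 kept their call under every alternative run, as did 27 of 30 differences between lines, and 100 of 114 counts stayed within 1.5 times. No named gene or line difference that passed in the main or the alternative run changed direction. Signs of values that passed in neither run were not compared. With DESeq2's size factors 3742 genes rose and 3763 fell, with library size alone 3511 and 4048, with no filter 3809 and 3879 of 16820, with DESeq2 3286 and 3382, with limma voom 3748 and 3750, and leaving out 1 library 3501 to 3610 and 3540 to 3671. With DESeq2, falls went from 9 to 5 among lysosomal genes, from 5 to 3 among STAT5 and ERK outputs and in the vacuolar ATPase and autophagy list, from 2 to 1 among growth factor receptors and from 1 (GADD45B) to 0 among p53 targets of arrest (0 also by its unadjusted values, 1 with limma voom). With library size alone interferon falls went from 3 to 5 and adhesion falls from 1 to 2; with no filter adhesion falls were 2 and erythroid rises 2 (1 with it). Leaving out 1 library gave falls of 1 to 2 for adhesion, 1 to 2 for erythroid, 1 to 2 for growth factor receptor, 1 to 2 for lymphocyte and 1 to 2 for purinergic genes, 0 to 1 for p53 arrest (0 without vehicle library 2 or 3 or selinexor library 2 or 3, of which GADD45B had an unadjusted edgeR p under 0.05 without vehicle library 3, 0.036, and without selinexor library 2, 0.035), 3 to 5 for vacuolar ATPase and autophagy genes, and proteasome rises of 1 to 3. Responses higher in MOLM-13 ranged from 1228 to 2084 and lower ones from 1450 to 2236. The line differences of RIPK3 (without any of 4 libraries, furthest at -0.85), DUSP5 (without any of 6) and TIGAR (0.94 without OCI-AML2 selinexor library 3) missed the threshold. No paired analysis was possible because the count columns carry no replicate numbers. The cause of these shifts was not tested; genes of few counts set the depth limit, with 3 counts standing for 0.313 to 0.375 CPM.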

Other observations

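Some genes that most cells transcribe had few counts over the 6 MOLM-13 libraries: PRC1 had 13, NDUFV2 17, NOP2 31, IPO4 7, ATP6V0C 4 and NHEJ1 3. The monocyte and macrophage marker CD68 had 33 and the antioxidant gene HMOX1 20. All of these had too few counts to test, and no fold change is given for them above.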
